A study of Mus musculus with 16 samples.

Results

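The cytosolic ribosomal protein genes are described here in 8 mouse tissues, each with a fed and a fasting library. The genes were chosen by name, as protein-coding rows of the count table whose symbol is Rpl or Rps followed by p0 to p2 or by a number with at most 1 of the letters a, x or l. The rule took 79 of the 55385 genes in the table, 49 of the large and 30 of the small subunit, and left out 3 rows that match the pattern but are annotated as pseudogenes (Rps4l, Rpl32l and Rpl6l). It also misses ribosomal protein genes with other names, of which Rps3a1, Rpsa, Rack1 and Fau averaged 338, 470, 368 and 118 CPM (counts per 1e+06 counts of a library).

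The study compared heart, skeletal muscle, liver, kidney, lung, spleen, white adipose and brown adipose of wild-type male C57BL/6 mice that were fed or had fasted for 24 h. The mice were acquired at 12 weeks of age, and tissue of 3 mice was pooled in equal parts for each of the 16 libraries. Each tissue therefore had 1 fed and 1 fasting library, with no replicate of either. Library totals ran from 14245178 to 36069968 counts, and 77 of the 79 genes averaged at least 1 CPM.

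Ribosomal proteins are the protein part of the cytosolic ribosome and are needed in nearly equal amounts, 1 copy of most of them in each particle. Their mRNAs are abundant in every cell that makes protein. Most begin with an unbroken stretch of pyrimidines at the cap, the terminal oligopyrimidine (TOP) tract, through which nutrients, mTOR and the RNA-binding protein LARP1 set how much of the mRNA is translated and how long it is kept. A nutrient signal can thus act on these mRNAs without a change in transcription, and RNA counts do not show translation.

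The windows around the annotated start are shown because a pyrimidine tract there is what the mRNAs of this class are known for. RefSeq (GRCm38.p6) gave a start for 59 of the 79 genes, and for each the 15 bases before and the 15 bases from the start are read 5′ to 3′ on the gene's strand. Capitals mark the longest run of at least 6 pyrimidines that begins with C. The first windows below belong to Rps6, the small subunit protein phosphorylated by S6 kinase (minus strand, chr4:86857353-86857382), Rps27 (minus, chr3:90213634-90213663), Rpl4 (plus, chr9:64173372-64173401), Rpl7a (plus, chr2:26910792-26910821) and Rpl15 (minus, chr14:18270972-18271001). The last belong to 2 paralogs whose levels by tissue are described further on, Rps27l (plus, chr9:66946071-66946100) and Rpl3l (plus, chr17:24727811-24727840).
Rps6: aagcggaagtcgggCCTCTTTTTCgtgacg
Rps27: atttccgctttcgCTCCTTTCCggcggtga
Rpl4: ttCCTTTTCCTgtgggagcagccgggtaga
Rpl7a: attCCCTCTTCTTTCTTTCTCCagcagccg
Rpl15: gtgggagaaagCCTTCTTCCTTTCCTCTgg
Rps27l: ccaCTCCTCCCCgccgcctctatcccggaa
Rpl3l: gagtgttctagctctgtcatttgacctctg

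Such a run was found in 32 of the 59 windows (54.2%) and in 22.4% of the windows of 26966 other genes. It was 10 bases long in Rps6, 9 in Rps27, Rpl4 and Rps27l, 17 in Rpl15 and 19 in Rpl7a, and the Rpl3l window held none. In Rpl4 and Rps27l the run lies wholly before the annotated start, so these windows do not show a tract at the cap. The same holds for other members, Rpl10a, Rpl13 and Rps15a among them, and in Rpl39 and Rps12 the run begins several bases after the start. The 32 windows are therefore not a count of tracts at the cap. The 7-letter string CCGGAAG, searched on both strands in the 300 bases around the start as a core sequence of ETS family factors, was present for 23 of the 59 genes (39.0%) and for 9.06% of the other genes. For members with several listed starts the one nearest to the start in the gene annotation was used, and for the other genes the first one listed. The shares of members and other genes thus rest on different choices of start. A run just outside the window was not counted.

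Ribosomal protein genes took 0.733% to 3.71% of all counts in a library. The spleen libraries held 3.47% in the fed and 3.71% in the fasting pool, the lung libraries 1.501% and 1.443%, and the white adipose libraries 1.15% and 1.45%. Kidney gave 1.18% and 1.11%, heart 1.14% and 1.20%, and brown adipose 1.07% and 1.101%. Liver held 0.856% and 0.890%, and muscle 0.794% and 0.733%. Exact binomial 95% intervals were narrow, for example 0.791% to 0.798% in fed muscle and 3.70% to 3.72% in fasting spleen, and cover counting error only. The spleen shares lay above those of all other tissues, and the fed and fasting libraries of 1 tissue lay closer to each other than to spleen in every tissue.

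**Figure D1:**
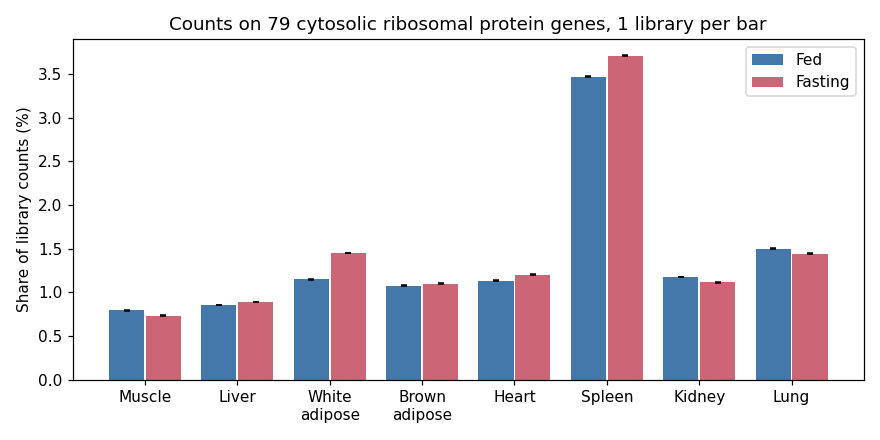
Share of library counts (%) on the 79 cytosolic ribosomal protein genes in each of the 16 libraries, fed in blue and fasting in red, with exact binomial 95% intervals. The spleen bars stand at 3.47% and 3.71%, and the white adipose bars differ most between fed and fasting, at 1.15% and 1.45%.

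Levels of single genes were compared per kilobase of the length in the table. That length, for example 3175 bases for Rpl3 and 1643 for Rpl3l, need not be that of the mRNA present, so values per kb are approximate. The highest means were those of Rplp1, an acidic stalk protein, at 687 CPM per kb, Rps29 at 378 and Rps15 at 309. The lowest among genes with at least 1 CPM were Rpl24 at 1.57 CPM per kb, Rps10 at 1.75 and Rpl13a at 6.19, far under the next gene, Rpl21, at 22.0. The library means of these low genes were 1.61 CPM for Rpl24, 4.05 for Rps10 and 13.1 for Rpl13a, although the ribosome holds their proteins like the others. Rows for pseudogenes named after a member (288 rows) together held between 1.89% and 2.26% of the members' CPM in each library. Rps10-ps2, Rpl14-ps1, Rpl23a-ps3, Rpl38-ps2 and Rpl21-ps15 averaged 19.2, 67.4, 35.5, 34.1 and 16.7 CPM, so reads of near-identical copies can be split between rows and the levels of Rps10, Rpl14, Rpl23a, Rpl38 and Rpl21 are uncertain. How the counting treated reads that map to several places is not given in the sources used here.

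Spleen was the tissue with the highest mean CPM for 75 of the 79 genes, and muscle the one with the lowest for 56. In a fit over all 16 libraries, with the fed and fasting pools as the 2 samples of a tissue and treatment as a term, 74 of 78 members were higher in spleen than in the mean of the other 7 tissues (edgeR's quasi-likelihood test, Benjamini-Hochberg adjusted p under 0.05, TMM scaling). Of all 23580 genes fitted, 35.1% were higher in spleen. The median difference of the members was 1.05 on the log2 scale with TMM and 1.74 when libraries were scaled by total counts, under which 75 members were higher, beside 51.7% of all genes. Rps27 and Rpl12 stood out furthest upward, at 1.77 ± 0.11 and 1.79 ± 0.09 (log2, SE). The 2 members that were lower in spleen were paralogs, Rpl3l at -4.76 ± 0.42 and Rps27l at -1.66 ± 0.11, beside 29.6% of all genes with TMM and 17.3% with total counts, under which the count was also 2.

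Rps2, a small subunit protein at the mRNA entry side, did not follow the other genes. It measured 298 CPM in fed and 292 CPM in fasting spleen, 245 and 220 CPM in heart, and 139 and 124 CPM in lung. Its spleen level differed from the mean of the other tissues by 0.07 ± 0.09 (log2, edgeR's quasi-likelihood test, Benjamini-Hochberg adjusted p = 0.535), and its lung level by -1.20 ± 0.10 (adjusted p = 2.4e-06), both with TMM. Its CPM was still highest in spleen and lowest in lung, so the spleen difference depends on the scaling. By contrast Rps3, its neighbour in the small subunit, measured 902 and 971 CPM in spleen and 370 and 348 CPM in lung.

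In the other tissues the direction of the difference often turned with the scaling. In muscle 30.3% and 30.6% of the counts of the fed and fasting library fell on 10 genes, and the TMM factors ran from 0.534 in fasting muscle to 1.51 in fed spleen. In muscle 28 members were higher and 8 lower with TMM, beside 25.9% and 25% of all genes, and 1 was higher and 75 lower with total counts, beside 10.1% and 55.8%. In liver 23 were higher and 2 lower with TMM (27% and 24.8% of all genes), and 1 higher and 66 lower with total counts (13.7% and 49.4%). In lung 56 were lower with TMM (23.6% of all genes), while 42 were higher and 3 lower with total counts (53.8% and 9.32%). In white adipose 62 were lower with TMM (18.4% of all genes), and 8 were higher and 2 lower with total counts (44.8% and 5.83%). Heart had 10 higher and 5 lower with TMM (22.7% and 19.8% of all genes) and 3 and 15 with total counts (18.8% and 26.8%). Brown adipose and kidney kept their direction. In brown adipose 38 were lower and 5 higher with TMM (17.9% and 21.7% of all genes), and 35 and 5 with total counts (16.2% and 23.2%). In kidney 36 were lower and 4 higher with TMM (19.3% and 27.7% of all genes), and 19 and 4 with total counts (16.6% and 30.3%).

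**Figure D2:**
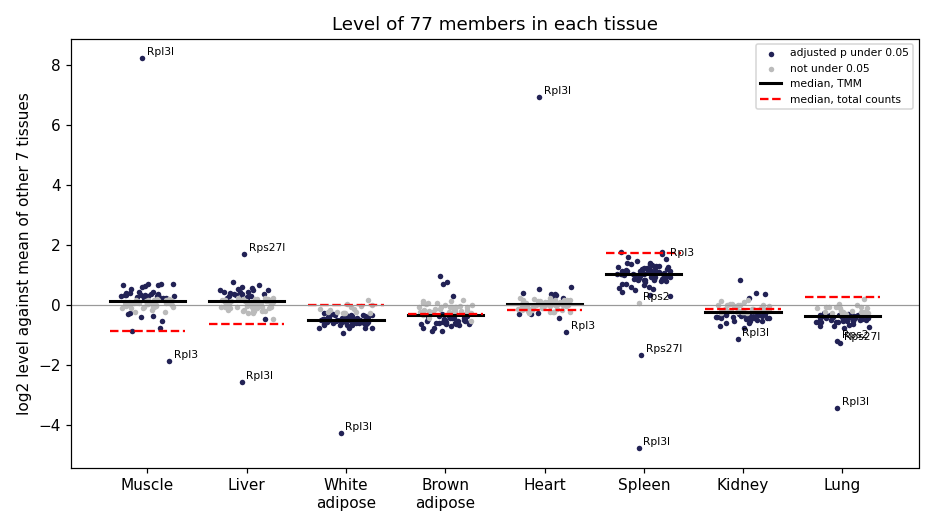
Level of 77 members in each tissue against the mean of the other 7 tissues (log2, TMM scaling), dark points for an adjusted p under 0.05, the median with TMM as a black line and with total counts as a red dashed line. Spleen lies above the other tissues on both lines, at 1.05 and 1.74, and Rpl3l stands at 8.23 in muscle and 6.94 in heart. Rpl39l was left out for its low counts.

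Spleen is rich in lymphocytes and blood-forming cells, and the samples were checked with marker lists. Each of the 8 tissue lists of 5 genes had its highest summed level in the 2 libraries of its own tissue. B cell markers summed to 3138 and 3005 CPM in spleen and to 200 and 99.5 CPM in fed and fasting lung. Erythroid markers summed to 3825 CPM in fed and 9265 CPM in fasting spleen, and pancreatic acinar markers to 550 CPM in fed and 0.826 CPM in fasting spleen. Without the fed spleen library 73 members were higher in spleen and without the fasting one 71. In whole tissue a different number of cells of a type and a different amount of RNA per cell cannot be told apart.

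Rpl3l is a paralog of Rpl3 known from striated muscle, and Rpl3 lies beside the peptidyl transferase centre. Rpl3l was at 115 and 97.5 CPM per kb in fed and fasting muscle and 82.4 and 78.3 CPM per kb in heart. Rpl3 was at 11.9 and 12.9 CPM per kb in muscle and 37.5 and 35.7 CPM per kb in heart, its lowest tissues, and at 264 and 280 CPM per kb in spleen. Rpl3l thus made up 90.6% (exact binomial 95% interval 90.0% to 91.2%) of the pair's length-scaled counts in fed muscle, 88.3% in fasting muscle and 68.7% in both heart libraries. The interval does not cover the choice of length, and without division by length the fed muscle share was 83.3%. In brown adipose the share was 4.78% fed and 2.0003% fasting, and in the other tissues it was at most 0.836%. Against the mean of the other tissues Rpl3l was higher by 8.23 ± 0.17 in muscle and 6.94 ± 0.17 in heart, and Rpl3 lower by -1.86 ± 0.12 and -0.90 ± 0.11 (log2, SE), the latter with a Benjamini-Hochberg adjusted p of 1.72e-07 and 4.57e-05 in edgeR's quasi-likelihood test.

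Rps27l differs from Rps27 by a few residues, is known as a target of p53, and was lowest in spleen, where Rps27 was highest. Rps27 was at 850 and 967 CPM per kb in fed and fasting spleen, 285 and 288 in lung, and 106 and 128 in liver. Rps27l was at 27.3 and 28.05 CPM per kb in spleen, 35.8 and 32.5 in lung, and 97.7 and 81.4 in liver. Spleen had the lowest Rps27l levels of the 8 tissues, while the liver libraries overlapped those of kidney, at 89.8 and 83.9 CPM per kb, and lay near those of brown adipose, at 77.9 and 80.6. The share of Rps27l in the pair was 48.0% in fed and 38.8% in fasting liver, 37.3% and 33.8% in kidney, 36.2% and 31.2% in brown adipose, 27.4% and 23.97% in muscle, 21.9% and 13.2% in white adipose, 19.6% and 18.1% in heart, 11.2% and 10.1% in lung, and 3.11% and 2.82% in spleen. The fasting library was the lower of the pair in each of the 8 tissues. The exact binomial intervals of the fed and fasting share overlapped in heart, spleen and lung. The share of Rpl7l1 in its pair with Rpl7 was also lower in each fasting library (13.2% and 9.54% in white adipose). So was that of the pseudogene row Rps4l in its pair with Rps4x (9.85% and 4.97% in white adipose). In liver both were nearly level, at 16.2% and 16.1% and at 10.3% and 10.1%. Rpl22l1 in its pair with Rpl22 was higher in fasting white adipose (27.5% and 29.3%) and kidney (21.7% and 22.8%), and lower in the other tissues. Rpl36al and Rpl3l were higher in some tissues and lower in others. The share within a library does not move with library scaling. Against the other tissues Rps27l was higher in liver by 1.70 ± 0.08 and in kidney by 0.83 ± 0.08 (log2, TMM scaling, adjusted p = 8.8e-09 and 9.45e-06, edgeR's quasi-likelihood test, Benjamini-Hochberg adjusted).

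Rpl10l and Rpl39l, known from the male germ line, were the members under 1 CPM on average. Rpl10l had 1 count in fasting white adipose and 0 in the 15 other libraries, where a count of 0 allows up to 0.211 CPM in the shallowest. Rpl39l had 0 to 5 counts in all tissues but brown adipose, where its 19 and 18 counts made 2.13% and 2.38% of the length-scaled counts of Rpl39 and Rpl39l. Its brown adipose level was higher than the mean of the other tissues by 4.72 ± 0.46 (log2, edgeR's quasi-likelihood test, Benjamini-Hochberg adjusted p = 2.23e-05), a fitted value that rests on libraries at or near 0. Of paralogs outside the naming rule, Rpl22l1 made 13.4% to 33.8% of its pair with Rpl22, Rpl7l1 7.18% to 16.5% of its pair with Rpl7, and Rpl36al 0.812% to 2.44% of its pair with Rpl36a.

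**Figure D3:**
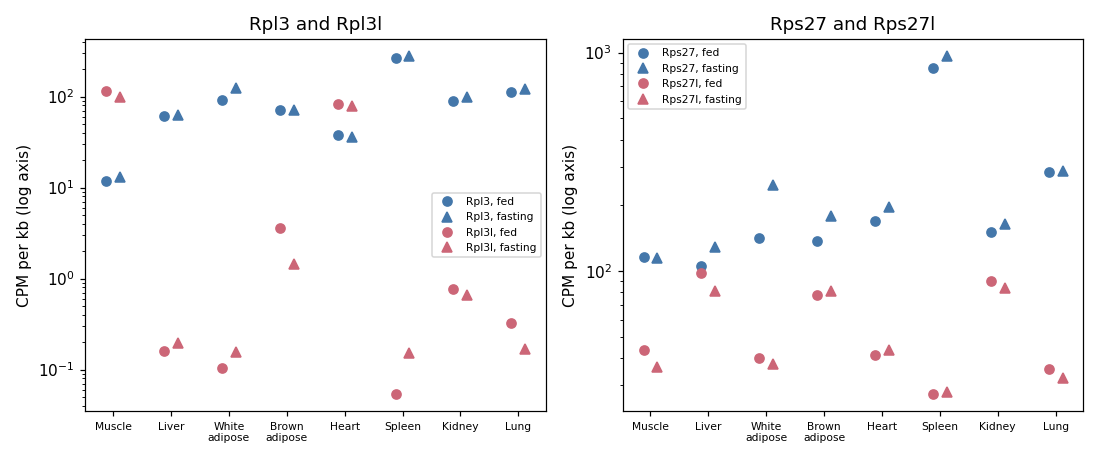
Levels in CPM per kb (log axis) of Rpl3 and Rpl3l on the left and of Rps27 and Rps27l on the right in each tissue, circles for fed and triangles for fasting libraries. Rpl3l lies above Rpl3 in muscle and heart, at 115 against 11.9 in fed muscle, and Rps27l comes closest to Rps27 in fed liver, at 97.7 against 106.

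Fasting against fed was tested in each tissue with Fisher's exact test on the 2 libraries, with a call at p under 0.01 and an absolute log2 fold change over 0.5 (pseudocount of 0.01 CPM). With 1 library a group this compares libraries, not conditions. Few members were called in any tissue. White adipose had 4 higher of 79, beside 13.2% of all genes tested that were called higher and 19.1% called either way. In muscle 1 of 78 was called (13.8% of all genes), in brown adipose 1 of 78 (13%) and in kidney 1 of 77 (6.69%), all lower in fasting. In liver (14% of all genes), heart (10.1%), spleen (3.93%) and lung (9.18%) the test called 0 of 78 members, while 29, 28, 58 and 37 of them had an unadjusted p under 0.01 with a smaller fold. The interquartile range of the fold among the 71 members with at least 50 CPM was 0.06 to 0.17 on the log2 scale, and that of other genes at this level 0.19 to 0.50.

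White adipose showed the largest common shift. The median fold over all members was 0.33 on the log2 scale and that of all genes with at least 1 CPM 0.06, and 78 of 79 members were higher in the fasting library. TMM scaling moved the members' median to 0.23 and that of all genes to -0.04, with 73 of 77 members at or above 1 CPM still higher. Rps27 was 148 CPM in the fed and 257 CPM in the fasting library (log2 fold change 0.79), and Rps6 155 and 231 CPM (0.58). Rps14, of the small subunit platform, was 163 and 238 CPM (0.55), and Rps27a, made as a fusion with ubiquitin, 89.0 and 126 CPM (0.51). These 4 were called, and with TMM scaling 1 was. Among the rest, Rpl15, a large subunit protein, was 82.9 and 97.6 CPM (0.24), Rpl41 266 and 280 CPM (0.08), and Rps27l, the 1 member that was not higher, 32.5 and 30.5 CPM (-0.09). The study names Rps6 and Rpl15 for spleen, where its nanopore data had specific transcripts lower in fasting without a significant gene-level change. In the spleen counts used here their log2 fold changes were 0.11 and 0.04.

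The members' median fold in the other tissues was -0.11 in muscle, 0.04 in liver, 0.02 in brown adipose, 0.07 in heart, 0.09 in spleen, -0.09 in kidney and -0.07 in lung. The median of all genes with at least 1 CPM was -0.15, -0.12, -0.04, -0.06, -0.02, -0.06 and -0.09 in the same order. With TMM scaling the lung median of the members was above 0, at 0.01, so its direction is not set. In fasting lung all 5 B cell markers (summed 200 and 99.5 CPM) and all 5 T cell markers (72.9 and 30.8 CPM) were called lower, and in fasting liver all 11 acinar markers were called higher (86.3 and 246 CPM). All 5 heart markers were also called lower in fasting lung (897 and 528 CPM). All 5 liver markers were called higher in fasting heart (17.3 and 69.0 CPM) and lower in fasting kidney (144 and 76.3 CPM). The part of these markers in the medians was not tested. In spleen 75 of 78 members were higher in fasting and in muscle 72 of 78 lower, a count that became 48 of 77 at or above 1 CPM with TMM. In the same spleen libraries all 6 erythroid markers were called higher (summed 3825 and 9265 CPM) and all 11 acinar markers lower (550 and 0.826 CPM), and their part in the result was not tested. The large and small subunit medians were close to each other, at 0.33 and 0.34 in white adipose and -0.13 and -0.10 in muscle.

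**Figure D4:**
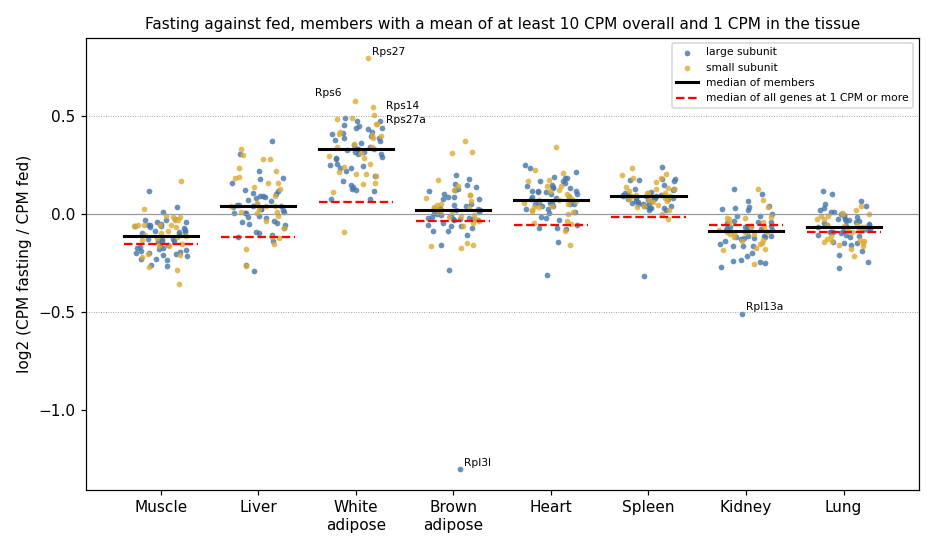
Log2 ratio of fasting to fed CPM of the members with a mean of at least 10 CPM overall and 1 CPM in the tissue, large subunit in blue and small subunit in yellow, with the median of the members in black and that of all genes with at least 1 CPM in red. Most points lie within the dotted lines at 0.5 in either direction, and the white adipose points centre on 0.33.

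By role, the stalk genes Rplp0, Rplp1 and Rplp2, whose proteins recruit the translation factors, had log2 fold changes of 0.41, 0.12 and 0.12 in white adipose and of -0.16, -0.25 and -0.22 in kidney, and none was called in any tissue. Rpl5 and Rpl11, which bind the smallest rRNA and restrain Mdm2 when unassembled, were 227 and 316 CPM and 201 and 245 CPM in fed and fasting white adipose (0.47 and 0.28). Rpl4, Rpl17 and Rpl39 line the exit tunnel, and their folds were 0.39, 0.45 and 0.40 in white adipose and -0.07, -0.21 and -0.21 in muscle. Of the decoding side, Rps2, Rps3, Rps15 and Rps23 had folds of 0.16, 0.39, 0.20 and 0.36 in white adipose, and Rps2 had folds from -0.21 in muscle to -0.01 in liver in the 7 other tissues with total counts, where TMM scaling turns the liver value. All 9 genes of a list mutated in Diamond-Blackfan anaemia were higher in fasting white adipose (median 0.34, 0 called) and lower in fasting muscle by total counts (median -0.19), where Rps10 was called on 34 fed and 21 fasting counts (log2 fold change -1.05), a call lost with TMM, DESeq2 scaling or an adjusted p.

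The largest folds in the other tissues were small for genes with many counts. In liver Rps18 was 141 and 178 CPM (log2 fold change 0.33), while Rps27l was 79.8 and 66.4 CPM (-0.26). In heart Rps9 was 254 and 323 CPM (0.34) and Rpl18 120 and 142 CPM (0.25), and in muscle Rps21 was 52.1 and 58.7 CPM (0.17) and Rpl3 37.8 and 41.0 CPM (0.12). At the low end in muscle stood Rps27a, at 68.0 and 53.0 CPM (-0.36). In brown adipose Rps27 was 143 and 186 CPM (0.37) and Rps27a 79.1 and 98.5 CPM (0.32). In spleen Rpl29 was 89.7 and 106 CPM (0.24), and in lung Rpl37a was 205 and 223 CPM (0.12) and Rpl3 360 and 386 CPM (0.10).

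Rpl13a, a large subunit protein that leaves the ribosome in the interferon response, had the lowest or second lowest fold in liver, brown adipose, heart, spleen, kidney and lung among genes with a mean of at least 10 CPM. Its row averaged only 13.1 CPM, far under most members, so whether these folds stand for the whole mRNA is uncertain. In kidney Rpl13a was 17.3 and 12.2 CPM and was called (log2 fold change -0.51), a call lost with TMM, DESeq2 scaling or a pseudocount of 1 CPM, with Rpl41 next at 267 and 221 CPM (-0.27). Rpl3l was called in brown adipose, at 5.90 and 2.39 CPM (-1.30) on 98 and 34 counts. Skeletal muscle markers summed to 2220 and 1039 CPM in the same libraries, and their part in the result was not tested. Rpl3l in spleen, with 2 and 7 counts, and in lung, with 16 and 10, had few counts on which to rest a fold.

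Across the 8 tissues the fit with tissue and treatment as terms, which takes the tissues as separate observations of 2 sets of mice, called 0 of the 78 members, beside 1.87% of the 23580 genes (edgeR's quasi-likelihood test, Benjamini-Hochberg adjusted p under 0.05, 7 residual degrees of freedom). At an unadjusted p under 0.05 there were 7 members, 6 of them higher, and the DESeq2 Wald test called 5 of 77, all higher, among them Rpl22, Rpl4, Rps14 and Rps27, beside 5.2% of the 16234 genes it tested that were called higher. The members' median was 0.08 and that of all genes fitted -0.01 on the log2 scale, and 69 members were above 0. The smallest p belonged to Rps27, with a difference of 0.29 ± 0.08 (SE, edgeR's quasi-likelihood test, Benjamini-Hochberg adjusted p = 0.0898), higher in fasting in 7 of 8 tissues. Rps14, Rpl22 and Rps28 were at 0.18 ± 0.07, 0.15 ± 0.06 and 0.18 ± 0.07, and Rpl13a was the 1 of the 7 below 0, at -0.20 ± 0.08. Rps6 was at 0.17 ± 0.07 (adjusted p = 0.241) and Rpl15 at -0.01 ± 0.07 (adjusted p = 0.969).

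Whether fasting acted differently on a member in 1 tissue than in the other 7 was tested with a term for that tissue (6 residual degrees of freedom). The edgeR quasi-likelihood test called 0 of 78 members in each of the 8 tissues. Of all genes it called 4.39% for white adipose, 0.208% for liver, 0.0297% for spleen, 0.0127% for muscle, 0.00424% for brown adipose and 0% for heart, kidney and lung. In white adipose no member had an unadjusted p under 0.05, the median difference from the other tissues was 0.16 on the log2 scale, and 71 of 78 members were above 0. Rps27 came closest there, at 0.45 ± 0.22 (Benjamini-Hochberg adjusted p = 0.423, edgeR's quasi-likelihood test), and the DESeq2 Wald test called 1 of 77 members in white adipose, Rpl10, beside 5.68% of the 20548 genes it tested that were called higher, and none in the other tissues. Members with an unadjusted p under 0.05 were 1 in liver, Rpl24, and 1 in brown adipose, Rpl3l at -1.22 ± 0.37 (adjusted p = 0.851). The white adipose libraries also differed in other markers. Kidney markers summed to 67.2 CPM in the fed and 747 CPM in the fasting library and adipocyte markers to 19356 and 16264 CPM, and their part in the result was not tested.

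The other genes of the translation machinery were taken from lists chosen, like the members, with earlier results of these data known. In white adipose 16 of 17 other TOP mRNAs were higher in fasting (median 0.37 on the log2 scale) and 4 were called higher, beside 13.2% of all genes: Eif4b, a helper of the cap-binding helicase, at 207 and 369 CPM, Npm1, a nucleolar chaperone, at 102 and 166 CPM, Snhg1 at 11.7 and 19.8 CPM and Eif3f at 80.5 and 116 CPM. In muscle 4 of the 17 were also called higher (median 0.01, beside 4.42% of all genes), and in brown adipose 4 (median 0.23, beside 5.39%). In white adipose the elongation factor Eef1a1 was 2415 and 3242 CPM (0.42) and Eef2 1286 and 1601 CPM (0.32). Ribosomal proteins of mitochondria were mostly lower in fasting white adipose. Of 77 with counts 67 were lower (median -0.23, 9 called, all lower), and of 73 oxidative phosphorylation subunits 68 (median -0.30, 14 called, all lower), beside 5.84% of all genes called lower. In muscle, kidney and lung the median of the mitochondrial ribosomal proteins was -0.19, -0.23 and -0.19 by total counts, below 0 like that of the members, whose lung median turns with TMM. In brown adipose, heart, spleen and liver it was -0.24, -0.12, -0.09 and -0.08 by total counts, where the median of the members was above 0, and the liver value turns with TMM. Of a list of 14 regulators of TOP mRNAs, 2 were called higher in fasting white adipose and 0 lower (median 0.07), beside 13.2% and 5.84% of all genes. They were Eif4ebp3, an inhibitor of cap-dependent translation, at 0.902 and 7.11 CPM and Myc at 9.75 and 16.95 CPM in the fed and fasting library. Myc was also called higher in muscle, brown adipose, heart and kidney, with log2 folds of 1.30, 2.03, 2.77 and 1.61, and lower in liver (-0.87). Eif4ebp3 was called higher in liver (3.85) and kidney (1.05), and Eif4ebp1, of the same family, in muscle (2.21) and heart (1.57). Larp4 was called higher in muscle (0.54), while Tia1 in muscle (-0.63) and Larp1b in liver (-0.61) were called lower. The list thus had 3 called higher in muscle, 1 in liver, 1 in brown adipose, 2 in heart and 2 in kidney, beside 4.42%, 4.46%, 5.39%, 4.33% and 2.77% of all genes. Called lower were 1 in muscle and 2 in liver, beside 9.39% and 9.52%. Larp1, Mtor and Rptor were not called in any tissue. Across tissues 2 of the 17 other TOP mRNAs were called higher, beside 1.03% of all genes (edgeR's quasi-likelihood test): Eif4b at 0.46 ± 0.09 (Benjamini-Hochberg adjusted p = 0.0303) and Gas5, a host of small nucleolar RNAs, at 0.43 ± 0.09 (adjusted p = 0.0464).

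**Figure D5:**
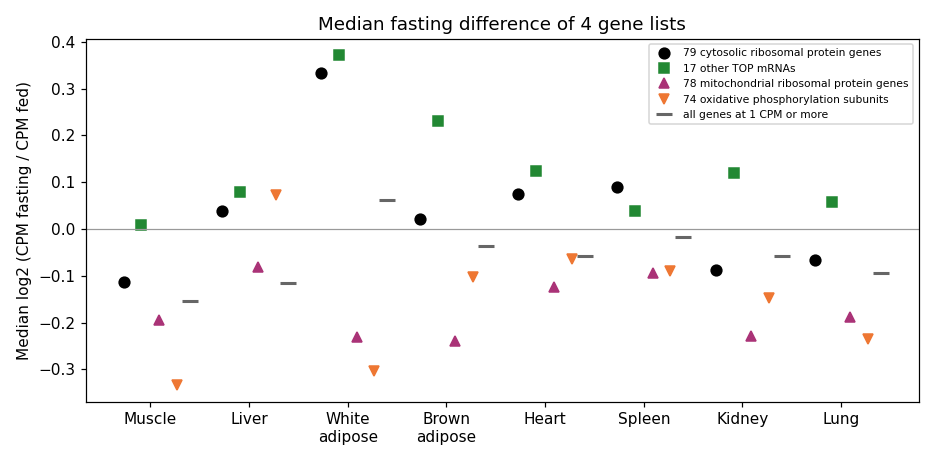
Median log2 ratio of fasting to fed CPM in each tissue for the 79 cytosolic ribosomal protein genes, 17 other TOP mRNAs, mitochondrial ribosomal protein genes and oxidative phosphorylation subunits, with the median of all genes with at least 1 CPM as a dash. In white adipose the first pair of lists stands at 0.33 and 0.37 and the second at -0.23 and -0.30.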

How the data were processed

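RNA-Seq counts per gene were used for 16 pooled libraries. Per the labels and the study's methods, reads were 100 bp pairs from strand-specific libraries, trimmed with fastp (0.23.2), checked with FastQC (0.11.8), aligned with HISAT2 (2.2.1.0, GRCm38) and then counted by the authors with featureCounts of Subread (2.0) on GENCODE release 24 for mouse. The deposited values were raw counts with no normalization, and the count for each gene carries its length. Gene symbols were matched by gene ID in GENCODE release 21 for mouse, which named 55144 of 55385 genes.

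CPM was the count divided by the library total of 14245178 to 36069968 counts, and fold changes used a pseudocount of 0.01 CPM. Exact binomial 95% intervals and the limit a count of 0 allows (3 counts) cover counting error only. Fits across tissues used edgeR 4.0.16 (quasi-likelihood test, TMM, filterByExpr) and DESeq2 1.42.0 in R 4.3.3, with Fisher's exact test in scipy 1.17.1, and were tested on simulated data. The fits take tissues as separate observations, and tissues of 1 treatment may come from the same mice. With 1 library per tissue and treatment, p-values of the fits rest on how the fasting difference varies from tissue to tissue. They do not measure the spread between pools or mice of a group, and those of Fisher's exact test cover counting error only. Start windows came from RefSeq (GRCm38.p6). The members and lists were chosen with earlier results of these data known. Named genes were those of the role groups and pairs, Rps6 and Rpl15, the 3 highest and lowest per kb, the 2 largest differences in each direction per tissue among members of at least 10 CPM, the 5 with the smallest p across tissues, and members under 1 CPM. Alternatives varied the scaling, pseudocount, thresholds, filter, dispersion, test and tissues left out. Some genes that this rule names are not reported here.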

Additional observations from a re-analysis of the deposited data

Results flagged for a closer look

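The members' median log2 fold change between fasting and fed had opposite signs in different tissues. It was 0.33 in white adipose, with 78 of 79 members higher in fasting, and -0.114 in muscle and -0.0868 in kidney, with 72 of 78 and 65 of 77 lower. The median of all genes with at least 1 CPM was 0.06, -0.15 and -0.06 in white adipose, muscle and kidney. Against that median the members lay higher in white adipose and in muscle, and lower in kidney. With TMM the median of all genes was -0.04, -0.08 and 0.02, and the members lay on the same sides of it. The members' medians kept their signs with TMM and DESeq2 scaling but moved towards 0 in muscle and kidney, to -0.038 and -0.012 with TMM, where 48 and 44 of 77 members at or above 1 CPM were lower and 29 and 33 higher. The difference between the medians was not tested, and the test of each gene's own difference called 0 of 78 members in each of the 3 tissues (edgeR's quasi-likelihood test).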

How the results depend on the processing

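With 1 pool of 3 mice in each group, the spread between mice could not be measured, and low counts limit Rpl10l, Rpl39l, Rpl24 and Rps10. The cause of each change below was not tested. The labels give no replicate numbers to pair by, and the fits across tissues paired fed and fasting libraries through the tissue term.

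Members called per tissue became 0 in muscle with TMM, DESeq2 scaling, an adjusted p or an assumed coefficient of variation of 0.2 or 0.4. They became 1 in white adipose with TMM and with DESeq2 scaling, and 0 at a log2 fold change over 1 or with either assumed variation, which also gave 0 in brown adipose. In kidney they were 0 under TMM, DESeq2 scaling, a pseudocount of 1 CPM, a log2 fold change over 1 and either assumed variation. The other 54 of 72 settings stayed near the count given.

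The median fold of the members with TMM and with DESeq2 scaling was -0.038 and -0.038 in muscle, 0.16 and 0.16 in liver, 0.23 and 0.22 in white adipose, 0.045 and 0.00031 in brown adipose, 0.13 and 0.13 in heart, 0.11 and 0.10 in spleen, -0.012 and -0.029 in kidney, and 0.011 and 0.0083 in lung, where the sign turned. It was 0.011 in liver without the 10 highest genes and 0.32 in white adipose with a pseudocount of 1 CPM. TMM moved the median of all genes from -0.12 to 0.01 in liver and from 0.06 to -0.04 in white adipose.

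DESeq2 called 5 members across tissues and 1 for the white adipose term. Leaving out 1 tissue at a time left both at 0 with edgeR, and the count of members higher or lower in spleen was 73 to 76 without 1 library (2 of them lower each time), alternatives for the term and the spleen level being chosen after seeing the data. With total counts, 76 members differed in level in muscle, 67 in liver, 10 in white adipose and 23 in kidney.

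Without the 10 highest genes in the total, the members' share in fed and fasting libraries was 1.14% and 1.06% in muscle, 0.940% and 0.959% in liver, 1.23% and 1.56% in white adipose, 1.18% and 1.21% in brown adipose, 1.26% and 1.33% in heart, 3.66% and 3.90% in spleen, 1.22% and 1.15% in kidney, and 1.58% and 1.52% in lung. Without the highest member it was 0.752% and 0.693%, 0.815% and 0.848%, 1.11% and 1.40%, 1.04% and 1.06%, 1.09% and 1.16%, 3.35% and 3.58%, 1.13% and 1.07%, and 1.45% and 1.39% in the same order.

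Without division by length, Rpl3l made 83.3% and 79.6% of its pair in muscle, 53.2% and 53.2% in heart, and 2.53% and 1.05% in brown adipose, and Rpl39l 1.25% and 1.39% in brown adipose. Rps27l made 22.8% and 19.8% in muscle, 42.0% and 33.1% in liver, 18.0% and 10.6% in white adipose, 30.7% and 26.2% in brown adipose, 16% and 14.8% in heart, 2.45% and 2.22% in spleen, 31.8% and 28.5% in kidney, and 8.95% and 8.10% in lung.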
